A study of Mus musculus with 6 samples.

Results

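A set of 9 genes of the Six-family, Eya, Meox and Sox8 group was read out of a comparison of 19938 genes between cultured and freshly sorted mouse muscle satellite cells, the stem cells that reside along muscle fibres. They were chosen by name as Six2, Six4, Six5, Eya1, Eya2, Eya4, Meox1, Meox2 and Sox8, and each was measured by 1 probe set that the platform annotation gives to that gene alone. The first group was satellite cells from 2-month-old C57BL/6J mice grown for 5 days on collagen and laminin in F10 medium with 20% horse serum and a daily dose of 5 ng/ml basic fibroblast growth factor, on 3 arrays. The other group was satellite cells of the same strain and age taken straight from the sorter, also on 3 arrays. Both came from limb and trunk muscle and were sorted for beta-1 integrin and CXCR4 and against CD45, CD31, CD11b, Ter119 and Sca1, and the labels give no other genotype or agent for either. The study used 3 mice, but no label says which array came from which animal; a p-value here therefore reflects only how far these samples spread, part of which may be technical. The arrays were made from bulk RNA, in which fewer cells of a type and less RNA per cell cannot be told apart.

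Six-family proteins are homeodomain transcription factors that bind MEF3 sites in muscle gene promoters. Eya proteins do not bind DNA on their own but join Six-family proteins as co-activators and also carry a phosphatase activity, and Dach proteins act as co-repressors in the same network. Upstream of Pax3 and of the myogenic regulators in the embryo, Six-family and Eya proteins specify muscle precursors. Meox1 and Meox2 are homeodomain factors of the somite, where Meox2 is needed for normal limb muscle. Sox8, a member of the SoxE group with Sox9 and Sox10, has been described in mouse satellite cells.

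None of the 9 genes passed the test between cultured and fresh cells. For 8 of them the interval of the difference in array values lay inside a 2-fold change in either direction. Of those 8 genes, 4 had means below background in both groups, as described below. The largest difference was in Eya1, whose 3 cultured values all lay below its 3 fresh values, at a log2 fold change of -0.70 ± 0.24 (SE, n = 3 arrays each) with an adjusted p of 0.184. With limma and Benjamini-Hochberg adjustment over all genes, 0 of the 9 genes passed an adjusted p of 0.05, against 4.32% of all genes tested, 0.953% higher and 3.37% lower in cultured cells. Of the genes that passed, 22.1% were higher in cultured cells, and over the 15 other settings the share ran from 10.8% without fresh replicate 3 to 38.8% after a further quantile normalization. At an unadjusted p of 0.05, 1 of the 9 passed, Eya1, against 17.6% of all genes. Cultured and fresh values did not overlap for 2 of the 9, against 23.2% of all genes. Eya1 lay wholly lower in cultured cells, as did 10.3% of all genes, and Eya2 wholly higher, as did 12.9%. The median log2 fold change of the 9 genes was 0.08, and that of all genes 0.04. Their median absolute log2 fold change was 0.16, against 0.18 over all genes.

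Background was taken as the level under which 95% of 1194 olfactory and vomeronasal receptor genes lay, 3.30 for cultured and 3.21 for fresh cells as a mean over 3 arrays. By this measure 50.8% of all genes were above background in cultured cells and 51.9% in fresh cells. Six2, Six5, Eya1, Eya4 and Sox8 had group means above it in both groups, and Six4, Eya2, Meox1 and Meox2 had group means below it in both. For those 4 genes the differences are between values at which the array does not separate a transcript from background, so they bound no change in the cells. Eya4 was close to the line, at 3.40 against 3.30 in cultured cells, and Six5 and Eya4 were above the background of the array on 5 arrays each. A mean above the line does not by itself show that a transcript was present, so the other intervals describe array values.

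**Figure D1:**
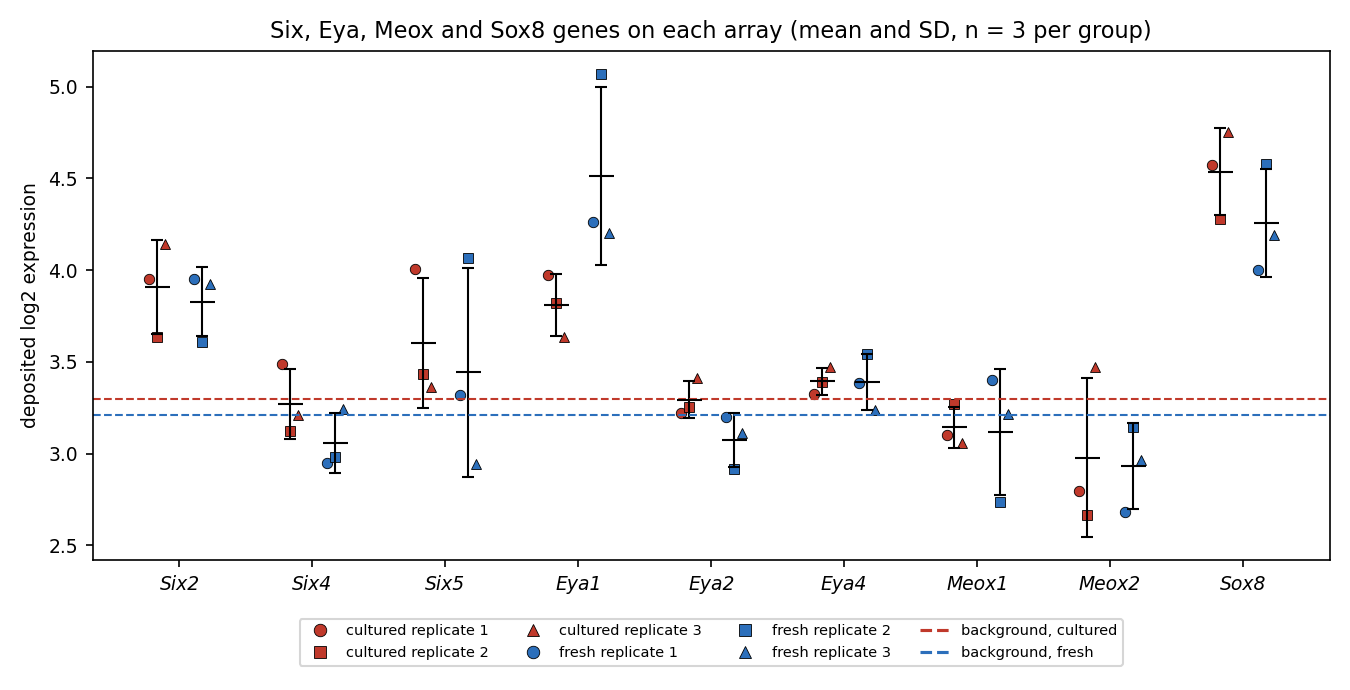
Deposited log2 expression (vertical axis) of the 9 genes on each array, with cultured values left of fresh values for each gene. Bars are the mean and SD of 3 arrays, and dashed lines are the background of each group, 3.30 for cultured and 3.21 for fresh arrays; the 3 cultured points lie wholly below the fresh ones for Eya1 and wholly above them for Eya2.

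Among the DNA-binding Six-family genes, Six2, best known for keeping kidney progenitors undifferentiated, was at 3.95, 3.63 and 4.14 on the cultured arrays, against 3.95, 3.61 and 3.92 on the fresh arrays. The groups overlapped almost completely, and replicate 2 was the lowest array in both. Its log2 fold change was 0.08 ± 0.18 (SE), with a 95% interval from -0.33 to 0.49 and an adjusted p of 0.868. All 6 values were above the background of their array.

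Six4, which acts together with other Six-family proteins in the muscle precursors of the mouse embryo, was at 3.49, 3.12 and 3.21 on the cultured arrays, against 2.95, 2.98 and 3.25 on the fresh arrays. The cultured values tended to the higher side, but the third fresh array lay above the lower pair of cultured arrays, and 2 of the 6 values exceeded the background of their array. The log2 fold change was 0.22 ± 0.16 (SE), with a 95% interval from -0.15 to 0.58 and an adjusted p of 0.552, and it was 0.11 without cultured replicate 1. The Six4 promoter is shown because it was the only member promoter in the RefSeq table that held the core of the MEF3 element, the letters TCAGGTT on either strand. It covers 250 bases before to 50 bases after the start in build GRCm38.p6, at chr12:73113196-73113495 on the minus strand, with the match in capitals, starting at position -97 from the start and written as its reverse complement:
Six4: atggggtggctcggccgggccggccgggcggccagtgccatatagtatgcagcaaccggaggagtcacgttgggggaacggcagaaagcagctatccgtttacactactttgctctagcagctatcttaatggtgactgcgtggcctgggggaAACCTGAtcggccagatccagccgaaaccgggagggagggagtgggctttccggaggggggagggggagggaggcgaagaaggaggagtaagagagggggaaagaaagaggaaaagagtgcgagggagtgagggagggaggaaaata
A further Six4 promoter in the table, of a start upstream, held no match. The core was found, on either strand, in 4.07% of 32851 promoters of this length, so its presence in 1 of 8 promoters from 6 member genes is a description of these letters and not of a site in use.

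Six5, whose human counterpart lies beside the gene expanded in myotonic dystrophy, was at 4.01, 3.44 and 3.37 on the cultured arrays, against 3.32, 4.06 and 2.94 on the fresh arrays. It varied more between fresh arrays than any other of the 9 genes, with an SD of 0.57 against a median of 0.18 over all genes, and the fresh values enclosed the cultured ones. The log2 fold change was 0.16 ± 0.30 (SE), with a 95% interval from -0.54 to 0.86 and an adjusted p of 0.839, and it was 0.47 without fresh replicate 2 and -0.09 without fresh replicate 3. The Six5 promoter is shown because the series is titled for Fos, a subunit of AP-1, and this was the only member promoter with the AP-1 letters TGANTCA. It lies at chr7:19094294-19094593 on the plus strand of GRCm38.p6, with the match in capitals, starting at position -173:
Six5: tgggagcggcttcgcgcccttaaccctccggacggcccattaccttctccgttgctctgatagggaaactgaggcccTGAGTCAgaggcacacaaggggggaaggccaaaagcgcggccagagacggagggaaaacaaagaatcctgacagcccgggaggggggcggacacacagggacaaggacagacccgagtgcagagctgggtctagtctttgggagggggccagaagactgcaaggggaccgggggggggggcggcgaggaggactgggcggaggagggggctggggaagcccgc
The AP-1 letters were found on either strand in 7.81% of the 32851 promoters, and the 2 motifs did not overlap in any member promoter. The 8 member promoters had a GC content between 57.3% and 69.3%, against a median of 52.7% over all promoters. The E-box letters CANNTG, bound by the myogenic basic helix-loop-helix factors, were found in the promoters of Eya4, Meox2 and Sox8 and in 72.3% of all promoters. The promoters of Eya1, Eya2 and Meox1 were not used here.

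Of the co-activators, Eya1, which with Eya2 is needed for the muscle precursors of the mouse embryo, had the largest difference between group means. It was at 3.97, 3.82 and 3.63 on the cultured arrays, against 4.26, 5.07 and 4.20 on the fresh arrays. All fresh values were higher, but the second fresh array stood well above the other two. Cultured cells averaged 3.81 ± 0.17 and fresh cells 4.51 ± 0.48 (SD, n = 3 each), a 1.63-fold difference with a 95% interval of the log2 fold change from -1.27 to -0.14 that takes no account of the number of genes. Among all genes, 90.4% had a smaller absolute log2 fold change. The adjusted p was 0.184, and it stayed above the threshold under each of 15 other settings, the lowest being 0.072 with array weights at -0.81 and the highest 0.442 without cultured replicate 3 at -0.61. Without fresh replicate 2 the log2 fold change was -0.42, with an adjusted p of 0.309. Every value was above background on its array. The cultured mean was below the fresh mean in each of the 15 settings, but most of them could not turn it. The replicate block, the other prior, the dim filter and the probe set rules leave the estimate of a gene with 1 probe set unchanged. As the groups do not overlap, weighting or leaving out an array cannot turn the sign either. Array medians differed too little for centring on them to turn it, so only quantile normalization and cyclic loess could.

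Eya2 was at 3.22, 3.25 and 3.41 on the cultured arrays, against 3.20, 2.92 and 3.11 on the fresh arrays. The cultured values all lay above the fresh ones, by as little as the gap between 3.22 and 3.20, and 1 of the 6 values exceeded the background of its array. The log2 fold change was 0.22 ± 0.14 (SE), with a 95% interval from -0.11 to 0.55 and an adjusted p of 0.484, and it was 0.14 without fresh replicate 2. Eya4, in which mutations cause hearing loss in humans, was at 3.32, 3.39 and 3.47 on the cultured arrays, against 3.39, 3.54 and 3.24 on the fresh arrays. Its groups had nearly the same mean, 3.40 in cultured and 3.39 in fresh cells. The log2 fold change of Eya4 was 0.01 ± 0.14 (SE), with a 95% interval from -0.32 to 0.33 and an adjusted p of 0.991, and its sign turned with quantile normalization, cyclic loess and centring on the array medians. The Eya1 and Eya2 differences had opposite signs; whether they differ from each other was not tested.

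The homeodomain genes of the somite gave no separation. Meox1, described in zebrafish as a regulator of muscle stem cell growth arrest, was at 3.10, 3.27 and 3.06 on the cultured arrays, against 3.40, 2.74 and 3.22 on the fresh arrays. The fresh values spanned the cultured ones, and 1 of the 6 values exceeded background. Its log2 fold change was 0.02 ± 0.19 (SE), with a 95% interval from -0.42 to 0.47 and an adjusted p of 0.966. Meox2 was at 2.80, 2.67 and 3.47 on the cultured arrays, against 2.68, 3.15 and 2.97 on the fresh arrays. The third cultured array stood above the rest and was the only value of Meox2 over background. The log2 fold change of Meox2 was 0.05 ± 0.24 (SE), with a 95% interval from -0.50 to 0.60 and an adjusted p of 0.943, and -0.20 without cultured replicate 3.

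Sox8 was at 4.57, 4.28 and 4.75 on the cultured arrays, against 4.003, 4.58 and 4.19 on the fresh arrays. All 6 values were above background, and the groups overlapped because the second fresh array exceeded the lower 2 cultured arrays. Cultured cells averaged 4.53 ± 0.24 and fresh cells 4.26 ± 0.29 (SD, n = 3 each). The log2 fold change was 0.28 ± 0.20 (SE), with a 95% interval from -0.18 to 0.73 and an adjusted p of 0.535, and leaving out 1 array gave 0.15 without fresh replicate 1 and 0.17 without cultured replicate 3, up to 0.44 without fresh replicate 2 with an adjusted p of 0.358. The mean was higher in cultured cells under each of the 15 other settings, with none past the threshold. The replicate block, the other prior, the dim filter and the probe set rules could not alter this difference. Array medians differed too little for centring on them to turn its sign, so only the remaining settings bear on it.

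**Figure D2:**
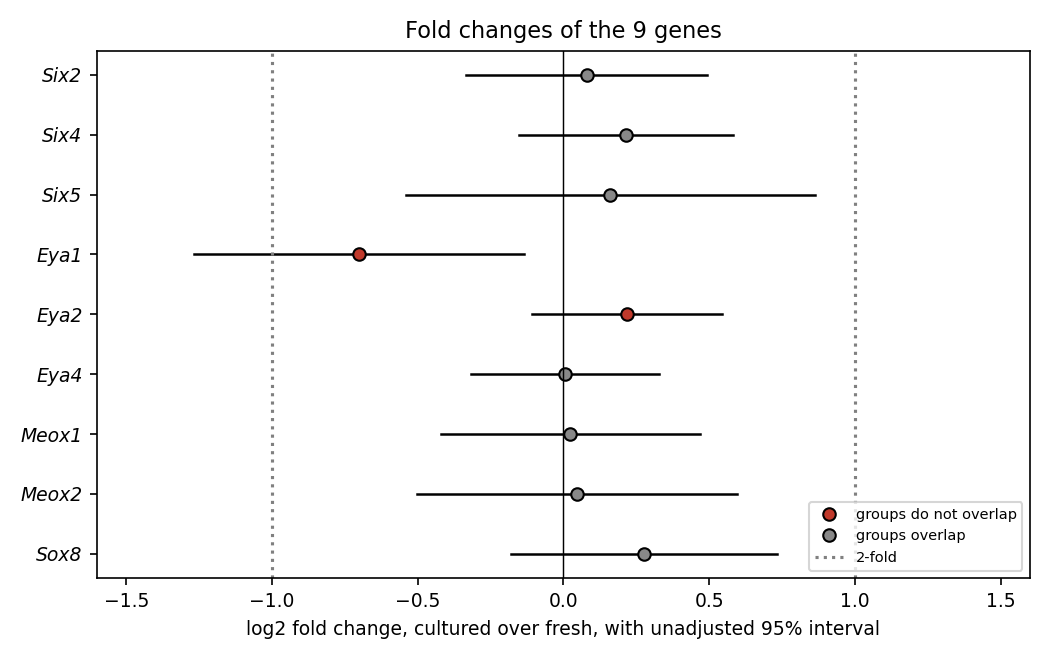
Log2 fold change of cultured over fresh cells for the 9 genes (horizontal axis), with the unadjusted 95% interval from limma and dotted lines at a 2-fold change. Red points mark genes whose 3 cultured and 3 fresh values do not overlap; the interval of Eya1, from -1.27 to -0.14, is the only one that leaves 0 out, and it alone crosses a 2-fold line.

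The second fresh array was the highest or the lowest of the fresh arrays for 8 of the 9 genes, highest for Six5, Eya1, Eya4, Meox2 and Sox8 and lowest for Six2, Eya2 and Meox1, while over all genes it held one of these places for 66.1%. The third cultured array did so among the cultured arrays for 8 of the 9 genes and for 56.2% of all genes. These were the largest counts. The others were 5 for cultured replicates 1 and 2, 6 for fresh replicate 1 and 4 for fresh replicate 3. For those arrays the share over all genes was 64.6% to 74.7%. The fresh SD of the 9 genes had a median of 0.23, against 0.18 over all genes, and their cultured SD a median of 0.19, the same as over all genes. No gene met the condition for naming like profiles, which was a call. For Eya1, chosen after its values were seen, profiles over the 6 arrays were compared by Euclidean distance after centring each on its mean. Predicted, small RNA and olfactory and vomeronasal receptor genes were left out. The nearest were Syap1 at 0.12, Rtl8c at 0.19 and the Notch receptor gene Notch3 at 0.27. Notch3 was at 4.46, 4.48 and 4.44 on the cultured arrays, against 5.08, 5.73 and 4.90 on the fresh arrays, with an adjusted p of 0.104. Its highest array was also the second fresh one, but it was picked for its likeness to Eya1 over these arrays, so this is no separate observation.

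Of the other 5 measured Six-family, Eya and Dach genes, none passed the test, and their median log2 fold change was 0.002. Eya3, the remaining co-activator, named here after its values were seen, was at 3.81, 3.27 and 3.55 on the cultured arrays, against 2.98, 3.01 and 2.83 on the fresh arrays. All its cultured values lay above its fresh values, and the fresh mean was below background. Its log2 fold change was 0.60 ± 0.17 (SE) with an adjusted p of 0.104, and with array weights it passed at 0.61 with an adjusted p of 0.0348. Six3, Six6, Dach1 and Dach2, also outside the rule for named genes, had log2 fold changes between -0.14 and 0.06.

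Of 18 other Sox genes, 1 fell and none rose, where 3.37% of all genes fell and 0.953% rose. Their median log2 fold change was 0.09. The one that fell was Sox9, the SoxE relative of Sox8 that drives cartilage formation. Sox9 was at 5.19, 5.13 and 4.96 on the cultured arrays, against 5.64, 6.10 and 6.04 on the fresh arrays. Its cultured values lay wholly below its fresh ones, and its log2 fold change was -0.84 ± 0.17 (SE), at an adjusted p of 0.0331. The call was lost in 8 of the 15 other settings, among them the quantile normalization at -0.60 with an adjusted p of 0.0861 and the fits that left out replicate 2 or replicate 3 of either group, where the adjusted p reached 0.145. Sox10, a marker of Schwann cells, was at 3.63, 3.32 and 3.68 on the cultured arrays, against 4.56, 3.47 and 3.26 on the fresh arrays, and did not pass, with an adjusted p of 0.788.

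Of 33 measured mesoderm and muscle lineage factors, 29 did not pass the test, 3 fell and 1 rose, where 4.32% of all genes passed, and their median log2 fold change was 0.10. The 3 that fell were the myogenic regulator Myf5, the satellite cell factor Pax7 and Msc, a basic helix-loop-helix repressor of myogenesis. Myf5 was at 5.44, 5.13 and 4.81 on the cultured arrays, against 6.70, 6.97 and 7.45 on the fresh arrays, a log2 fold change of -1.91 ± 0.24 (SE) with an adjusted p of 0.00389. Msc was at 3.83, 4.31 and 4.02 on the cultured arrays, against 6.25, 5.68 and 5.88 on the fresh arrays, a log2 fold change of -1.88 ± 0.20 (SE) with an adjusted p of 0.00174. For Myf5 and Msc every cultured value was at least 1 unit below every fresh value on the log2 scale, and both passed under each of the 15 other settings. Pax7 had a log2 fold change of -1.33, from 3 cultured values that all lay below the fresh ones. The one that rose was the differentiation factor Myog, with a log2 fold change of 2.28 and an adjusted p of 0.0465, lost with the replicate block at an adjusted p of 0.0555, with all probe sets fitted together at 0.102, without cultured replicate 2 at 0.0722, and when a fresh array was left out, with a highest adjusted p of 0.166.

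**Figure D3:**
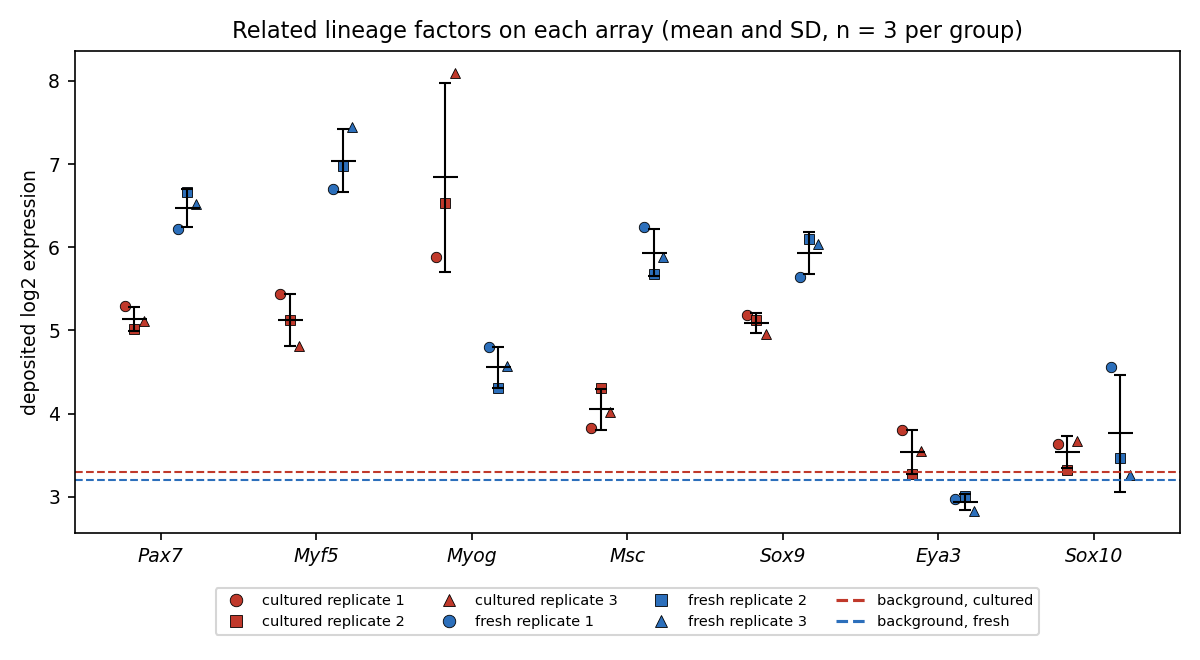
Deposited log2 expression (vertical axis) of Pax7, Myf5, Myog, Msc, Sox9, Eya3 and Sox10 on each array, cultured values left of fresh values, with mean and SD of 3 arrays and the background of each group as dashed lines. Pax7, Myf5, Msc and Sox9 were lower and Myog higher in cultured cells, while Eya3 and Sox10 did not pass the test. Sox9 lost its call after quantile normalization and in other settings. Myog lost its call when any fresh array was left out and in other settings.

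Of 14 measured genes described elsewhere as targets of Six-family or Eya proteins, 2 rose and 1 fell, with a median log2 fold change of -0.06. Over all genes 0.953% rose and 3.37% fell. Myog and Myf5 are also among the lineage factors counted above. Those that rose were Myog and the slow-muscle troponin Tnnc1, with a log2 fold change of 3.53 and an adjusted p of 0.00668, and the one that fell was Myf5. A relation between these genes and the Six-family and Eya levels was not tested. The third cultured array was the highest for Myog and Tnnc1, at 8.10 and 8.98, as it was for Six2, Eya2, Eya4, Meox2 and Sox8 among the cultured arrays. It was the lowest cultured array for Six5, Eya1 and Meox1, and neither for Six4. Without that array the log2 fold change was 1.65 for Myog and 2.88 for Tnnc1, and both passed.

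The labelled cell type was checked against its markers. Of 12 satellite cell markers, 11 were above background in cultured and 12 in fresh cells, and 8 fell, where 3.37% of all genes fell. Among the 8 were Chodl and Sdc4 with log2 fold changes of -5.90 and -2.91. The adhesion gene Cdh15 was at -0.40 and did not pass (adjusted p of 0.398). The genes for CD45, CD31 and CD11b, against which the cells were sorted, were within background in both groups. Above background in cultured cells were 5 of 11 fibro-adipogenic, 3 of 10 endothelial, 5 of 8 Schwann cell, 8 of 10 smooth muscle, 4 of 8 tendon, 1 of 10 leukocyte and 8 of 11 muscle fibre markers. In fresh cells the counts were 7 fibro-adipogenic, 3 endothelial, 5 Schwann cell, 8 smooth muscle, 6 tendon, 3 leukocyte and 8 muscle fibre markers. Over all genes the share above background was 50.8% in cultured and 51.9% in fresh cells. The counts alone therefore do not show that a cell type was present. Of these lists, 5 fibro-adipogenic markers fell, led by Dpt at -5.02 and Dcn at -4.52. The mean level of the list was 3.45 to 3.49 on the cultured arrays, against 4.80 to 5.16 on the fresh arrays. The other 6 of the 11 did not pass, and not all of those lay lower in cultured cells. The median log2 fold change of the list was -0.625, so its mean level does not describe each marker. Of the endothelial, Schwann cell, smooth muscle and muscle fibre markers, 1 of each list fell, namely Tek at -0.76, Pmp22 at -2.05, Des at -1.21 and Ckm at -0.80, and no tendon or leukocyte marker passed. The calls of Tek and Ckm were lost when replicate 2 or replicate 3 of either group was left out, with adjusted p-values reaching 0.168 and 0.137, and with the replicate block, at 0.103 and 0.109. That of Des was lost when cultured replicate 3 or a fresh array was left out, reaching 0.149, and after quantile normalization, at -0.69 with an adjusted p of 0.112, and that of Pmp22 when fresh replicate 2 or 3 was, reaching 0.0695. The part of these markers in the Eya1, Sox9, Myf5 and Msc values was not tested.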

How the data were processed

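RNA of 3 cultured and 3 fresh satellite cell samples was hybridised to Affymetrix arrays after whole-transcript labelling, per the labels' protocols. The log2 expression values of 35556 probe sets were deposited by the authors and made with RMA and oligo, per the submitters' processing notes, with no version; their genome build was not given in the sources used here. RMA compresses differences near background. Array medians lay between 3.10 and 3.15, while the 95th percentile was 6.42 and 6.71 on cultured replicates 2 and 3 and 7.37 to 7.45 on the other arrays.

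Probe sets with 1 gene (21789, against 1621 with several and 12146 unlisted) were named through the platform annotation and GRCm38.p6 gene names, and the one with the highest mean was kept for each of 19938 genes. Groups were compared with limma 3.58.1 (R 4.3.3), with group as the only term, eBayes and Benjamini-Hochberg adjustment over all genes, in code tested on simulated data. There, 1 of 50 genes changed by 0.5 on the log2 scale passed, 30 of 50 changed by 1 and 47 of 50 changed by 2. A gene without a call may therefore have changed by less than 2-fold, and a change of 2-fold or more can also go without a call. The number of arrays limits the precision. The text names the 9 genes, up to 4 genes past the test of each related list and up to 2 of each marker list, and Pax7, Myf5, Cdh15 and Sox10. Eya3, Six3, Six6, Dach1, Dach2, Syap1, Rtl8c, Notch3, Cxcr4 and Itgb1 were added after their values were seen. Genes and lists were chosen with earlier results of these data known. No label ties replicate numbers to animals and same-numbered arrays did not deviate together, so the numbers were not used as a block in the fit reported. Promoters are from RefSeq, GRCm38.p6, where 6 of the 9 genes matched. Other settings were a replicate block, another prior, array weights, 3 scalings, a filter on dim genes, other probe set rules and leaving out each array.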

Additional observations from a re-analysis of the deposited data

How the results depend on the processing

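None of the 9 genes passed under any of the 15 other settings (14 for Six4, Eya2, Meox1 and Meox2, which the filter on dim genes removed), and Six4, Eya1, Eya2 and Sox8 kept their direction in all of theirs. The replicate block, the other prior, the dim filter and the probe set rules could not alter the log2 fold change of these genes. For Eya1 and Eya2, whose groups do not overlap, weighting or leaving out an array could not turn the sign either. Array medians differed too little for centring on them to turn the sign of Six4, Eya1, Eya2 or Sox8. The sign of a difference near 0 turned for Eya4 with quantile normalization (-0.027), cyclic loess (-0.069) and median-centred arrays (-0.034), for Meox1 with those 3 settings (-0.020, -0.043 and -0.015) and array weights (-0.0011), and for Meox2 with cyclic loess (-0.012). Leaving out 1 array gave a range of -0.037 to 0.22 for Six2, -0.089 to 0.47 for Six5, -0.070 to 0.082 for Eya4, -0.17 to 0.17 for Meox1, -0.20 to 0.20 for Meox2, -0.47 to 0.18 for Sox10, 0.11 to 0.31 for Six4, 0.14 to 0.28 for Eya2 and 0.15 to 0.44 for Sox8. Over all genes the count past the test was 861, and 1742 with array weights, 1511 after quantile normalization, 1492 with cyclic loess, 547 when all probe sets were fitted together, and 448 to 1517 when 1 array was left out (448 without cultured replicate 3, 471 without fresh replicate 3, 478 without fresh replicate 2 and 1517 without cultured replicate 1). Of the 67 genes in the related lists, 6 passed, where 4.32% of all genes did, and 10 with array weights and 4 to 7 with 1 array left out. The causes were not tested. The replicate block gave 662 calls over all genes, 4 in the related lists and none among the 9; same-numbered deviations correlated at -0.09, -0.14 and 0.03, which gives no sign that a number marks a shared source, and no cultured array correlated best with its own number; the labels leave this open. Sox9 lost its call with the replicate block at an adjusted p of 0.0878, with the trended and robust prior at 0.096 and with all probe sets fitted at 0.0703. With that prior Des and Ckm lost theirs at 0.0986 and 0.0742, and with all probe sets fitted Tek, Des and Ckm did at 0.0832, 0.0856 and 0.076. Signal near background limits Six4, Eya2, Meox1 and Meox2, and Eya4 lay close to it.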
